A study of Canis lupus familiaris with 9 samples.

Results

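The genes described here encode regulators of pre-mRNA splicing, chosen by gene symbol. They are the genes whose only platform symbol starts with SRSF, HNRNP, MBNL, CELF, RBFOX or PTBP, or is RBM20, RBM24, QKI, TRA2A, TRA2B, KHDRBS1 or NOVA1. The rule found 50 genes with 133 probe sets, of 15115 genes with a sole symbol and 42924 probe sets on the array. A probe set is a group of short array probes read out as 1 value, and each gene is given by whichever of its probe sets averaged highest on the 9 arrays. Of the 50 genes, 41 had several probe sets and 37 had a highest-mean probe set above the filter on low values (over 4 on the log2 scale in 4 or more dogs). Skeletal muscle came from 9 intact female beagles, 4 years old, of which 5 had been fed ad libitum for 24 weeks (dogs 2, 5, 6, 7 and 8) and 4 had been fed to hold their starting body weight (the controls, dogs 1, 3, 4 and 9). All dogs ate the same commercial diet and were sampled after an overnight fast, so both groups share the fasted state. Each dog gave 1 Affymetrix canine array.

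Splicing regulators bind pre-mRNA and decide which exons and splice sites the spliceosome uses. SR proteins (SRSF genes, with the SR-like TRA2 proteins) mostly favour inclusion of the exons they bind, and hnRNP and PTB proteins often repress splice sites. In muscle, MBNL, CELF, RBFOX and RBM20 proteins set the isoforms of sarcomere and calcium-handling proteins. MBNL and CELF proteins act in opposite directions on many of the same exons, and loss of free MBNL protein on expanded repeat RNA underlies myotonic dystrophy. A 3' expression array reads the total transcript level near the 3' end, so the values below say how much mRNA of a regulator was present and nothing of the isoforms it makes.

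Values are deposited GCRMA values, taken as log2 from their range since no source used here gives the base, and differences are ad libitum minus control on that scale. The dogs are separate animals, and 5 against 4 arrays limit the precision. Standard errors of a group difference had a median of 0.208 over the 37 genes and 0.197 over all 18394 tested probe sets. Muscle fibre markers were high in all dogs (list mean 15.04 to 15.57 in ad libitum dogs and 15.37 to 15.56 in controls). Markers of other cell types also varied. The mean of the 14 adipocyte markers ranged from 7.59 to 9.59 in ad libitum dogs and from 7.00 to 8.73 in controls, with 13 of 14 higher on average in the ad libitum dogs. All 9 tested fibroblast markers of 10 were higher on average (list mean 8.08 to 11.47 against 7.88 to 9.01, with POSTN not above the filter). All 6 tested macrophage markers of 11 were higher on average (4.71 to 8.73 against 4.60 to 5.60), while CD68, CSF1R, AIF1, TYROBP and FCER1G were not above the filter. The part of these cells in the values below was not tested beyond the fit with the adipocyte mean as a covariate, and in bulk tissue fewer cells of a type and less RNA per cell cannot be told apart. One pair of ad libitum dogs stood apart in this gene group, and also in some of the related splicing lists given below. Dog 2 was the lowest of all 9 dogs in 19 of the 37 genes and dog 8 the highest in 16. Values without them are given where a result rests on them.

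No splicing regulator passed the test across the array. Among the 37 tested genes 18 averaged higher and 19 lower in the ad libitum dogs, against 51.6% of all tested probe sets lower. With each array centred on its median, which lowers the median of all probe sets from -0.0082 to -0.050, 23 of the 37 were lower. The median difference of the 37 genes was -0.034, with a range from -1.02 (RBM20) to 0.31 (SRSF2). None had an adjusted p under 0.05 (limma, Benjamini-Hochberg over all tested probe sets; the lowest was 0.796), and 0% of all tested probe sets had one. At an unadjusted limma p under 0.05 there was 1 higher gene, SRSF2, beside 3.71% of all tested probe sets, and 0 lower genes beside 2.21%. In 0 of the 37 genes did all ad libitum dogs lie above all controls, as in 0.739% of all tested probe sets, or all below them, as in 0.696%.

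**Figure D1:**
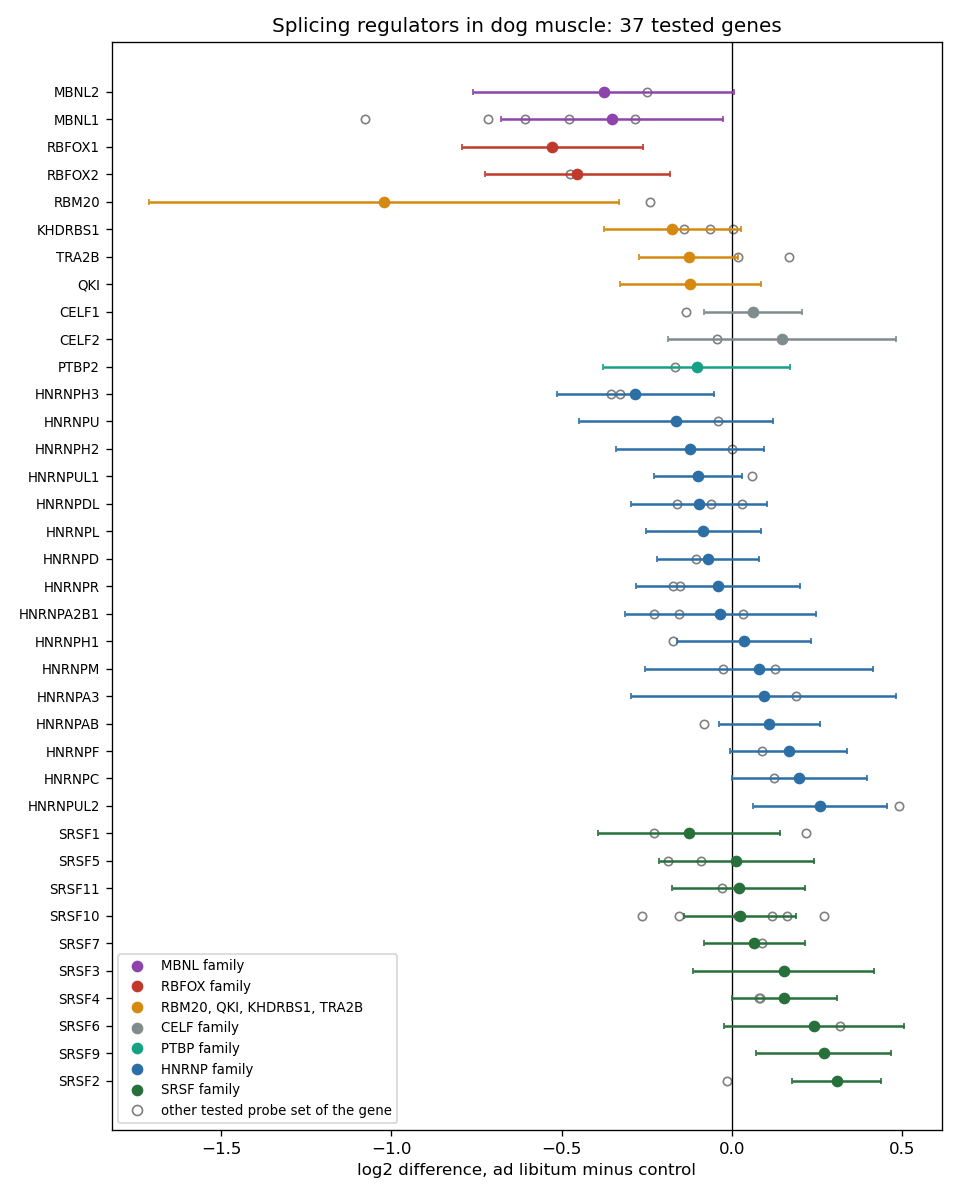
Log2 difference (ad libitum minus control) of the 37 tested splicing regulator genes, ordered by family. Each filled point is the gene's highest-mean probe set and each bar the standard error of the limma fit. Open grey circles are the other tested probe sets of a gene. Most filled points lie within 0.3 of 0, and RBM20 and RBFOX1 are the only filled points at or below -0.5. Of all 93 tested probe sets of these genes, 5 lie at or below -0.5, some of them open circles of MBNL1.

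At the highest-mean probe sets the families differed in direction, though no family difference was tested. Of the 10 tested SRSF genes 9 averaged higher (median 0.11), and of the 16 tested HNRNP genes 7 averaged higher and 9 lower (median -0.038). The other 11 tested genes, those of the MBNL, CELF, RBFOX and PTBP families with RBM20, QKI, KHDRBS1 and TRA2B, averaged lower in 9 cases (median -0.17), CELF1 and CELF2 being the exceptions. By the mean over a gene's tested probe sets, SRSF1 (-0.046), SRSF5 (-0.089) and SRSF11 (-0.0049) were lower and the other tested SRSF genes higher. Of the 11 genes outside the SRSF and HNRNP families, CELF1 (-0.036) and TRA2B (0.020) turned sign by that mean. Without dog 2, 10 of the 37 genes averaged lower and the median was 0.058, and without control 9, 15 were lower and the median was 0.060. In the other direction, 26 were lower without dog 8 (median -0.13) and 25 without control 3 (median -0.13). With the adipocyte mean as a covariate 14 were lower and the median was 0.090. That covariate also moved the median of all tested probe sets, from -0.0082 to 0.022.

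MBNL1, the main muscleblind protein of adult muscle, was read by 6 tested probe sets, and all 6 averaged lower in the ad libitum dogs (-0.28 to -1.08). At the highest-mean probe set the controls read 12.96, 12.40, 12.09 and 12.91 (dogs 1, 3, 4 and 9), and the ad libitum dogs 11.25, 12.29, 12.15, 12.65 and 12.85 (dogs 2, 5, 6, 7 and 8). The groups overlapped here, dog 2 lying 0.84 below the lowest control. The difference was -0.35 (SE 0.33, limma adjusted p = 0.872). It ranged from -0.52 without control 4 to -0.11 without dog 2, and was -0.0034 with the mean of 6 slow fibre genes as a covariate. These genes were MYH7, TNNT1, TNNI1, MYL2, MYL3 and TPM3. Their mean ran from 14.72 to 15.10 in the ad libitum dogs and from 14.67 to 14.91 in the controls. Dogs 2, 6 and 8 lay above every control, so a fit with this covariate can also take up part of the group difference.

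The MBNL1 probe set with the lowest mean gave a wider gap. There the controls read 7.15, 7.39, 7.07 and 7.65, and the ad libitum dogs 6.02, 5.66, 6.68, 6.14 and 6.66 in the same order of dogs. All 5 ad libitum dogs lay below all 4 controls. The group means were 6.24 ± 0.44 (SD, n = 5) and 7.31 ± 0.26 (SD, n = 4), a difference of -1.08 (SE 0.23), or 2.11-fold lower. The unadjusted limma p was 0.00109 and the adjusted p 0.796, while an exact permutation test over the 126 arrangements of the dogs gave p = 0.00794, the smallest it can give. Leaving out each dog in turn gave -1.19 to -0.94, and the adipocyte and slow fibre means as covariates gave -1.12 and -1.18. This was the 1 probe set without overlap among the 93 tested ones of the 50 genes, beside the 0.696% of all tested probe sets with the ad libitum dogs below, a share close to it.

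Between those ends, the other 4 MBNL1 probe sets differed by -0.28, -0.48, -0.72 and -0.61. Dog 2 was the lowest dog at 5 of the 6 probe sets, and dog 5 at the sixth. Control dog 9 was the highest at 5 of the 6. Averaged over the 6 probe sets the ad libitum dogs had 9.82 ± 0.50 (SD, n = 5) and the controls 10.41 ± 0.35 (SD, n = 4), a difference of -0.59 (two-sided exact permutation p = 0.0794). The difference at the lowest-mean probe set and that at the probe set with the smallest one lay 0.80 apart (two-sided exact permutation p = 0.0476, adjusted p = 0.933 over all such pairs on the array), so the 6 probe sets were not shown to differ from each other after adjustment.

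**Figure D2:**
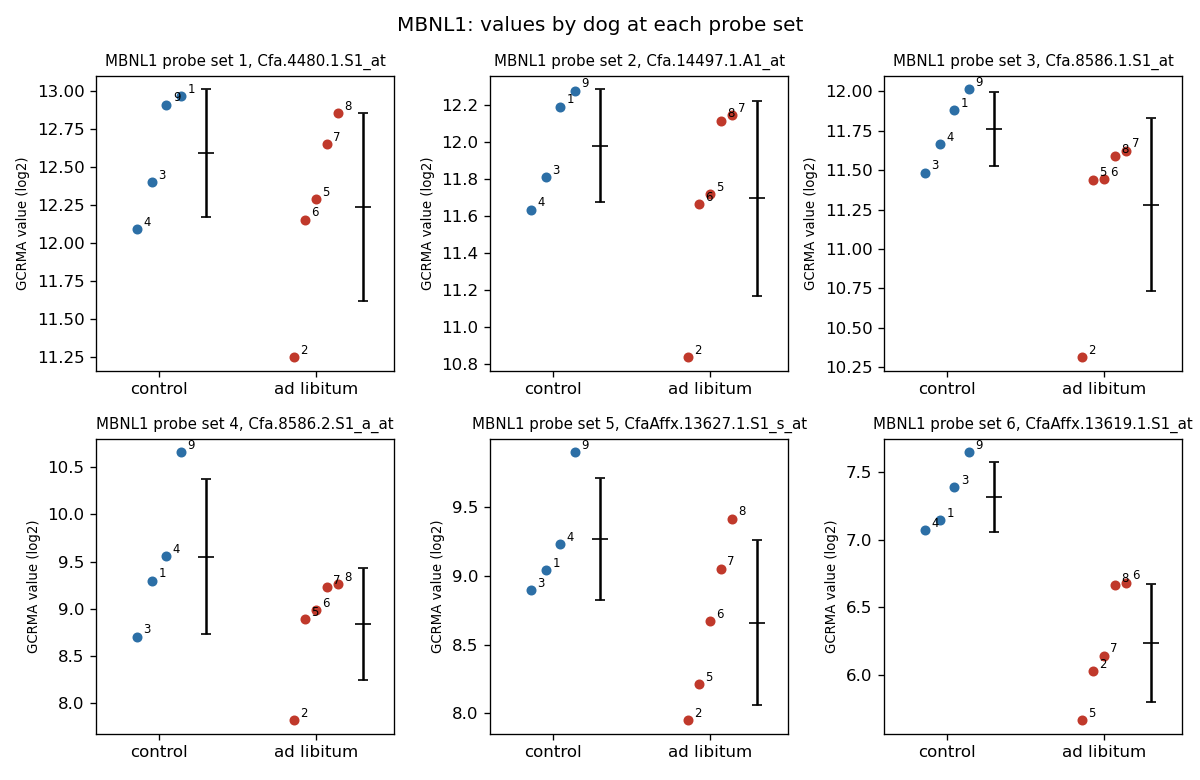
Log2 value of the 6 MBNL1 probe sets in each dog, in panels ordered by mean, with points for dogs and bars for the group mean and SD (5 ad libitum, 4 control). The groups overlap in 5 panels and are apart in the panel of the lowest-mean probe set, where the ad libitum dogs lie between 5.66 and 6.68 and the controls between 7.07 and 7.65.

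MBNL2, the second muscleblind gene, averaged 6.59 ± 0.53 (SD, n = 5) in ad libitum dogs and 6.96 ± 0.77 (SD, n = 4) in controls (-0.38, SE 0.38, limma adjusted p = 0.887). Its controls spanned 5.90 in dog 3 to 7.71 in dog 9, a range that held all ad libitum values except that of dog 2 (5.86). The difference ranged from -0.73 without control 3 to -0.13 without control 9, and was -0.057 with the slow fibre covariate. The second MBNL2 probe set differed by -0.25. MBNL3 was not above the filter.

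RBFOX1 and RBFOX2, which bind introns beside alternative exons of muscle and nerve transcripts, both averaged lower. RBFOX1 read 8.71, 8.96, 8.82 and 9.33 in the controls and 7.94, 8.44, 8.10, 8.36 and 9.30 in the ad libitum dogs. Dog 8 alone of its group lay among the controls. The difference was -0.53 (SE 0.27, limma adjusted p = 0.796). RBFOX2 read 11.36, 11.17, 11.06 and 11.06 in the controls and 10.30, 10.60, 10.62, 10.33 and 11.70 in the ad libitum dogs. Again 4 ad libitum dogs lay below every control, while dog 8 lay above all of them. The difference was -0.45 (SE 0.27, limma adjusted p = 0.799), and a second RBFOX2 probe set differed by -0.48. Without dog 8 both genes were free of overlap, at -0.75 for RBFOX1 and -0.70 for RBFOX2 (adjusted p = 0.733 for each), where 1.67% of all tested probe sets had the ad libitum dogs below all controls. Without dog 2 they differed by -0.41 and -0.35. The removal of dog 8 was singled out after each dog had been left out in turn, and is no independent support for a difference. RBFOX3 was not above the filter.

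**Figure D3:**
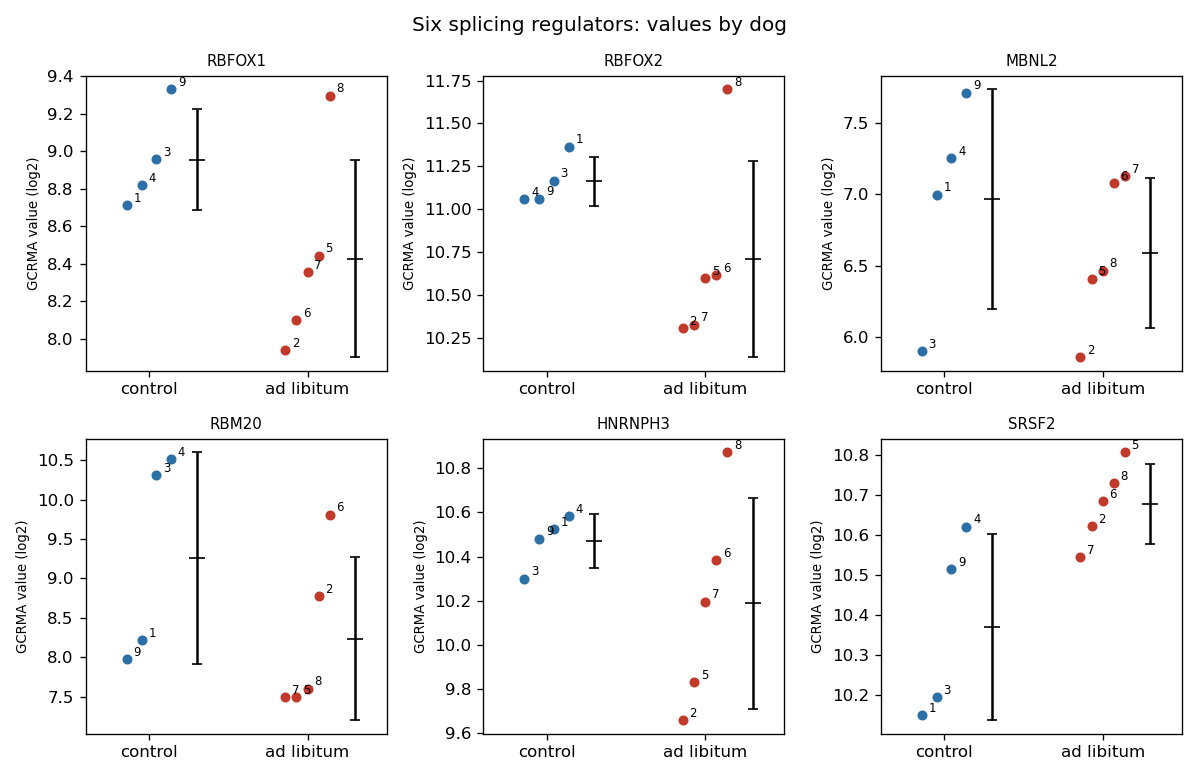
Log2 value in each dog for RBFOX1, RBFOX2, MBNL2, RBM20, HNRNPH3 and SRSF2, with points for dogs and bars for the group mean and SD (5 ad libitum, 4 control). In RBFOX1 and RBFOX2, dog 8 lies apart from the other 4 ad libitum dogs, and in RBM20 both groups spread over more than 2 log2 units.

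RBM20, the regulator of titin splicing in striated muscle, had the largest mean difference of the 37 genes and also the widest spread. The controls read 8.22, 10.31, 10.52 and 7.97, and the ad libitum dogs 8.77, 7.50, 9.81, 7.49 and 7.60. High and low dogs occurred in both groups, with controls 3 and 4 and ad libitum dog 6 near 10 and the others below 9. The difference was -1.02 (SE 0.69, limma adjusted p = 0.816, two-sided exact permutation p = 0.238), and its second probe set, at 4.58 to 5.81, differed by -0.24. Leaving out 1 dog moved it from -1.45 to -0.60, the latter without control dog 4, and array weights gave -0.48. With the mean of 6 slow fibre genes as a covariate it was -2.03 (limma adjusted p = 0.974).

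Among the single genes, QKI, which encodes the RNA-binding protein quaking, averaged 8.60 ± 0.38 (SD, n = 5) against 8.72 ± 0.24 (SD, n = 4) in controls (-0.12, SE 0.21). KHDRBS1, which encodes Sam68, differed by -0.17 (SE 0.20) and TRA2B by -0.13 (SE 0.15). In QKI and KHDRBS1 dog 2 was the lowest of all dogs, at 7.93 and 7.35, and the other ad libitum dogs lay within the range of the controls. With the adipocyte mean as a covariate QKI was at 0.15 and KHDRBS1 at 0.13, both with the sign turned.

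CELF1 and CELF2 averaged slightly higher, by 0.06 (SE 0.14) and 0.15 (SE 0.33). CELF2 read 10.39, 9.32, 9.08 and 10.39 in the controls and 9.33, 10.32, 9.68, 10.07 and 10.31 in the ad libitum dogs, so both groups spanned about the same range. Both CELF differences changed sign under array weights (-0.015 for CELF1 and -0.0079 for CELF2) and at the second probe set (-0.13 and -0.043). PTBP2, the PTB paralogue known for its role in neurons, differed by -0.10 (SE 0.27). PTBP1, the widely expressed repressor, read 3.99 on average and was not above the filter, nor was PTBP3.

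SRSF2, which binds exonic enhancers, was the only one of the 37 genes with an unadjusted p under 0.05. It read 10.15, 10.20, 10.62 and 10.52 in the controls and 10.62, 10.81, 10.69, 10.54 and 10.73 in the ad libitum dogs. The ad libitum dogs were close together and above controls 1, 3 and 9, while control 4 lay among them. The difference was 0.31 (SE 0.13, unadjusted limma p = 0.0411, adjusted p = 0.796, two-sided exact permutation p = 0.0159). The second SRSF2 probe set did not show it, with 6.44 ± 0.09 (SD, n = 5) against 6.45 ± 0.41 (SD, n = 4). The unadjusted p was above 0.05 when any of controls 1 and 3 or ad libitum dogs 2, 5, 6 and 8 was left out.

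The other SRSF genes differed less, relative to their error. SRSF9 averaged higher by 0.27 (SE 0.20), SRSF6 by 0.24 (SE 0.27), SRSF4 by 0.15 (SE 0.15) and SRSF3 by 0.15 (SE 0.27). SRSF1, the founding SR protein, was the one SRSF gene with a lower mean at the highest-mean probe set, by -0.13 (SE 0.27). The remaining 4 (SRSF5, SRSF7, SRSF10 and SRSF11) lay between 0.01 and 0.07. In SRSF4, ad libitum dogs 2, 5, 6 and 7 read 9.10, 9.10, 9.09 and 9.10 and dog 8 read 9.51. SRSF9 differed by 0.16 without dog 2, its highest dog, and by 0.030 with the slow fibre covariate. Its lowest dog was dog 7 (8.08), and without that one it differed by 0.42 with no overlap (adjusted p = 0.298), where 4.30% of all tested probe sets had the ad libitum dogs above all controls.

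Of the HNRNP genes, HNRNPUL2 had the lowest unadjusted p. It read 7.56, 7.50, 7.56 and 8.23 in the controls and 7.56, 7.87, 8.10, 8.08 and 8.26 in the ad libitum dogs, so that control 9 alone reached the higher ad libitum values. The difference was 0.26 (SE 0.20, limma adjusted p = 0.839) and that of its second probe set 0.49 (SE 0.24). HNRNPH3, of the family that binds runs of G, differed by -0.28 (SE 0.23) and lay between -0.35 and -0.28 at its 3 tested probe sets. It was -0.15 without dog 2 and -0.45 without dog 8. HNRNPH3 read 9.66 in dog 2 and 10.87 in dog 8, while the controls lay between 10.30 and 10.58. HNRNPC, which binds runs of U, averaged higher by 0.20 (SE 0.20), HNRNPF by 0.17 (SE 0.17) and HNRNPAB by 0.11 (SE 0.15), and HNRNPUL1 differed by -0.099 (SE 0.13). The other 10 tested HNRNP genes lay between -0.16 and 0.09, among them HNRNPA2B1 at -0.034 (SE 0.28) with 12.26 ± 0.47 (SD, n = 5) against 12.29 ± 0.45 (SD, n = 4).

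Dogs of 1 group differed from each other about as much in these genes as elsewhere on the array. The median SD within groups was 0.328, against 0.307 over all tested probe sets. Dog 2 was lowest in 51.4% of the 37 genes and in 18.5% of all tested probe sets, and dog 8 highest in 43.2% and 15.8%. Control 9 was highest in 21.6% and 9.58%. Dog 8 read above dog 2 in 31 of 37 genes, with a median gap of 0.71, against 49.0% and a median gap of 0 over all tested probe sets. That gap was 1.60 at the highest-mean probe set of MBNL1, 1.58 in HNRNPA3 and 1.46 in HNRNPU, and it ran the other way in RBM20 (-1.18), SRSF3 (-0.87) and SRSF9 (-0.41). These shares describe dogs picked for their extreme ranks and carry no test. The pattern was not particular to these genes. Dog 2 also had the lowest mean and dog 8 the highest over the SR protein kinases and partners. The same held over the other RNA-binding splicing regulators. The 3' minus 5' value of the GAPDH control probe sets, a measure of RNA integrity, was 2.29 in dog 2 and 2.25 in dog 8, with 2.21 ± 0.07 (SD, n = 5) in the ad libitum group and 2.09 ± 0.11 (SD, n = 4) in the controls (two-sided exact permutation p = 0.0714). The same measure for beta-actin went the other way, with 4.09 ± 0.54 (SD, n = 5) against 4.27 ± 0.89 (SD, n = 4; two-sided exact permutation p = 0.730), and 3.66 in dog 2 and 3.96 in dog 8. The part of RNA integrity in the gap between these dogs was not tested. Without both dogs, an alternative chosen after their values were seen, 18 of the 37 genes averaged lower, the median was 0.046, 2 genes (RBFOX1 and RBFOX2) were lower at an unadjusted p under 0.05, beside 2.83% of all tested probe sets, and 0 had an adjusted p under 0.05.

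**Figure D4:**
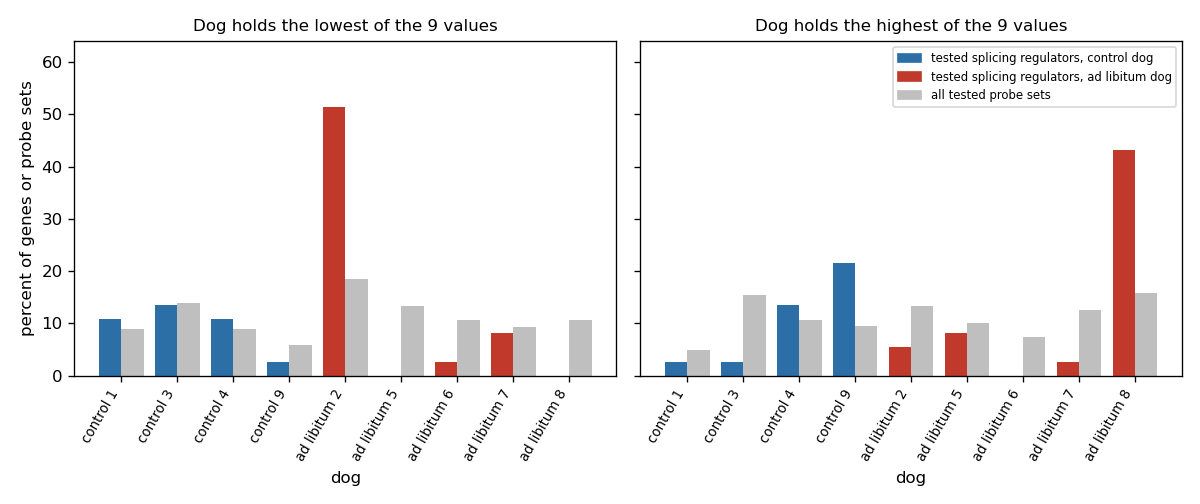
For each dog, the percent of the 37 splicing regulator genes and of all tested probe sets in which it was the lowest or the highest of the 9 dogs. Ad libitum dog 2 is the lowest in 51.4% of the 37 genes and ad libitum dog 8 the highest in 43.2%.

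Probe sets of 1 gene often disagreed in sign. Of the 32 genes with at least 2 tested probe sets, 17 (53.1%) had all of them on 1 side, 10 lower and 7 higher, against 72.7% of 4210 genes on the array. Genes with more probe sets have more chances to disagree, and the 2 shares were not matched for that. Of the 101 pairs of tested probe sets of 1 splicing regulator, 36 (35.6%) had opposite signs, against 23% of 9523 pairs on the array. Pairs of 1 gene share probe sets and are not independent. Genes with many tested probe sets, such as SRSF10 with 7 and MBNL1 with 6, supply more of the pairs. In 7 pairs (6.93%) the difference between the probe sets itself differed between the groups at a two-sided exact permutation p under 0.05, beside 5.1% of all pairs. None had an adjusted p under 0.05 (the lowest was 0.933), and 0% of all pairs had one.

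The pairs with the lowest p were in SRSF10, SRSF2 and CELF1. SRSF10, which represses splicing when dephosphorylated, had 7 tested probe sets between -0.26 and 0.27. The pair differed by 0.16 and -0.26. In each dog the higher-mean probe set of the pair minus the other was -0.03, -0.50, -0.15 and -0.25 in the controls and 0.41, 0.12, 0.29, -0.03 and 0.18 in the ad libitum dogs. The groups did not overlap (0.43, two-sided exact permutation p = 0.0159), but dog 7 (-0.02685) and control 1 (-0.02691) all but met. The share of all pairs on the array without overlap was not computed. For SRSF2 the 2 probe sets differed by 0.31 and -0.013, and for CELF1 by 0.062 and -0.13 (two-sided exact permutation p = 0.0159 for each). Another SRSF10 pair (0.024 and -0.26, p = 0.0238) and a pair of HNRNPM (0.13 and -0.026, p = 0.0317, both by exact permutation) came next. Both SRSF10 pairs hold the same probe set at -0.26, so the later one is not a separate instance. The probe positions within these transcripts are not analysed here, so it was not determined whether such pairs read different 3' ends or different exons.

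**Figure D5:**
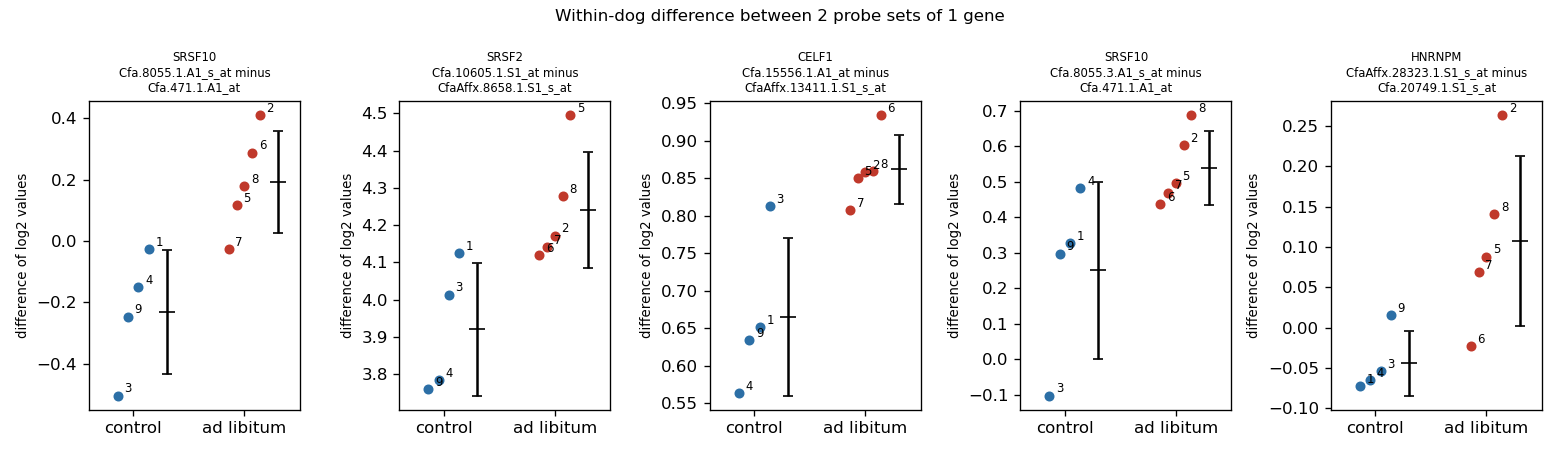
Value of 1 probe set minus another of the same gene in each dog, for the pairs with the lowest exact p, with points for dogs and bars for the group mean and SD (5 ad libitum, 4 control). The groups are apart for the SRSF10 pair that differs by 0.43 and overlap in the other 4 pairs.

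The 13 genes not above the filter were CELF3, CELF4, CELF5, CELF6, HNRNPA0, MBNL3, NOVA1, PTBP1, PTBP3, RBFOX3, RBM24, SRSF12 and TRA2A. Several of them are known from neurons, such as NOVA1 and RBFOX3, while RBM24 is a regulator of striated muscle. A low value on this array is a limit of the probe set and not evidence that a gene is off. NOVA1 read 3.91 and 4.63 in ad libitum dogs 5 and 6 and at most 3.27 in the other 7 dogs. PTBP3 read 4.22 in dog 5 and at most 3.48 in the others.

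No gene of the other splicing lists passed the test either. Of 55 tested genes of the core spliceosome and of splice site recognition, 26 averaged higher and 29 lower (median -0.016), 0 with an unadjusted limma p under 0.05. Over all tested probe sets 3.71% were higher and 2.21% lower at that p. U2AF1, which reads the AG at the end of introns, was the only one without overlap (9.97 ± 0.04, SD, n = 5, against 9.80 ± 0.12, SD, n = 4). Its limma adjusted p was 0.796, and 0.739% of all tested probe sets had the ad libitum dogs above all controls. The helicase DDX5 averaged higher by 0.56 (SE 0.26), and the branch site factor SF3A2 differed by -0.38 (SE 0.19). Of 17 kinases and partners of SR proteins 5 averaged higher and 12 lower (median -0.11). SRPK3, the muscle-specific SR protein kinase, differed by -0.36 (SE 0.20), and CLK4, which phosphorylates SR proteins in the nucleus, by -0.46 (SE 0.32). Dog 2 had the lowest mean of these 17 genes (7.65) and dog 8 the highest (8.33). Over the 55 core genes dog 8 was also the highest (8.57), while dog 5 was the lowest (8.28). Of 36 tested other RNA-binding splicing regulators 17 averaged higher and 19 lower (median -0.018). Here too dog 2 had the lowest mean (8.37) and dog 8 the highest (8.88). RBMX, an hnRNP-like protein, was the 1 gene of these with an unadjusted limma p under 0.05 (-0.32, SE 0.14, limma adjusted p = 0.796). Over all tested probe sets 2.21% were lower at that p, a share close to it. None of the 3 lists held a gene with an adjusted p under 0.05.

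Muscle transcripts that MBNL, CELF, RBFOX or RBM20 proteins are known to splice were read for their total level. Of 29 tested, 10 averaged higher and 19 lower (median -0.12), 0 with an adjusted p under 0.05. CAPN3, the muscle calpain, averaged 9.50 ± 0.23 (SD, n = 5) against 10.15 ± 0.29 (SD, n = 4), with no overlap (-0.65, SE 0.17, limma adjusted p = 0.796). In 0.696% of all tested probe sets the ad libitum dogs lay below all controls. TPM1, a tropomyosin, differed by -0.30 (SE 0.13), and FHOD3, an actin-binding formin, averaged higher by 0.57 (SE 0.25). TNNT2, the cardiac troponin T gene that is also expressed in immature muscle, averaged higher by 1.34 with an SE of 0.78.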

How the data were processed

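Muscle RNA of 5 ad libitum and 4 control dogs was labelled as biotin cRNA with a 3' amplification kit and hybridised to 1 array per dog, per the labels' protocols. The authors deposited 1 log2 value per probe set, computed by GCRMA (version not stated) according to the submitters' processing notes. GCRMA corrects background from probe sequence and normalizes arrays by quantiles, so a shift of most transcripts would not appear, and values near background are uncertain. Array medians lay between 3.30 and 3.38.

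Each dog's group came from its treatment label. The labels name no batch, so none was tested. Of 43035 probe sets, 111 controls were left out and the 18394 above log2 4 on at least 4 arrays entered 1 fit in R 4.3.3 with limma 3.58.1 (lmFit, eBayes, no covariate, two-sided, 7 residual degrees of freedom), with Benjamini-Hochberg adjustment over all of them. The fit was tested on simulated data. Standard errors are those of the fit. Symbols came from the platform annotation of 2016, and 6 probe sets with a regulator among several symbols were left out. Of the 50 Entrez gene IDs, 44 were found in the RefSeq gene table, with 0 symbols differing. Probe sets of 1 gene were compared by exact permutation of their difference over the 126 arrangements of dogs, with p-values adjusted over all 9523 such pairs on the array. The members, gene lists, pairs and alternatives were chosen with earlier results of these data known. Named were all muscle-related regulators outside the SRSF and HNRNP families, the 6 SRSF and 6 HNRNP genes with the lowest p, members with a probe set at an unadjusted p under 0.05 or without overlap, the 5 pairs with the lowest p, and genes among the 3 lowest p per direction of each list. HNRNPA2B1, HNRNPA3, HNRNPU and the genes of the filter and gap sentences were named after their values were seen. Marker lists for endothelial, smooth muscle, lymphocyte, nerve and blood cells were read as well: 4 of 8, 4 of 7, 0 of 1, 3 of 3 and 0 of 3 tested markers averaged higher in the ad libitum dogs. Alternatives were the filter, a floor, cyclic loess, centring, trend, robust and weighted fits, adipocyte and slow fibre covariates, other probe sets, and each dog left out.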

Additional observations from a re-analysis of the deposited data

Results flagged for a closer look

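Among the named genes, 50 groups of 4 or 5 dogs were checked for a dog far from the nearest other dog of its group, relative to the group's range (Dixon's critical value), and chance marks about 1 in 20 groups. The check marked 5. In RBFOX2, ad libitum dog 8 read 11.70 against 10.62 in the next dog, a gap of 0.776 of the range. In QKI, ad libitum dog 2 read 7.93 against 8.67 (0.817), and in KHDRBS1 the same dog read 7.35 against 7.91 (0.755). In SRSF4, ad libitum dog 8 read 9.51 against 9.10 (0.964). In HNRNPUL2, control dog 9 read 8.23 against 7.56 (0.915).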

How the results depend on the processing

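No paired analysis was possible because the groups share no replicate number (each number is 1 animal). No splicing regulator had an adjusted p under 0.05 in any alternative run. None had one under 0.10 in the main fit, the only fit in which that threshold was counted. With 9 arrays and a median standard error of 0.208, differences of the size seen in most of these genes could not be told from 0. Higher genes at an unadjusted p under 0.05 numbered 0 with the filter at 6, with centring, with the adipocyte or slow fibre covariate, with the mean of a gene's probe sets and with its second probe set. Lower ones numbered 1 with centring, array weights and the slow fibre covariate. Shares over all tested probe sets were not computed under these settings, so these counts are not read as results about the genes. Without dogs 2 and 8 together there were 0 higher genes, 2 lower genes and 2 without overlap, both below, against 2.40%, 2.83% and 3.33% of all tested probe sets. Leaving out 1 dog at a time gave 0 to 2 higher genes, 0 to 3 lower genes, 0 to 2 genes without overlap and 10 to 26 genes with a lower mean. It gave 1 to 6 pairs of probe sets at an exact permutation p under 0.05. With 1 dog left out the dogs have fewer arrangements and the exact p is coarser. The pair counts thus cannot be set against the 7 with all dogs, and the share over all pairs was not computed. Under the same removals 2.43% to 8.08% of all tested probe sets were higher and 1.28% to 3.61% lower at that p, and 0.892% to 4.30% lay without overlap above and 0.805% to 2.25% below. Signs turned in several genes, SRSF2 and SRSF6 included, and the cause was not tested. They were SRSF10 with centring (-0.018), CELF1 (-0.015) and CELF2 (-0.0079) with array weights, and CELF2 (-0.066), QKI (0.15), KHDRBS1 (0.13) and HNRNPF (-0.020) with the adipocyte covariate. The slow fibre covariate turned PTBP2 (0.044) and SRSF3 (-0.065), and took MBNL1 at its highest-mean probe set to -0.0034 and MBNL2 to -0.057. The mean of probe sets turned CELF1 (-0.036) and TRA2B (0.020). The second probe set turned CELF1 (-0.13), CELF2 (-0.043), TRA2B (0.019), SRSF2 (-0.013) and HNRNPAB (-0.081). With 1 dog left out at a time, signs turned within these ranges: CELF1 -0.016 to 0.17, CELF2 -0.090 to 0.35, PTBP2 -0.30 to 0.046, QKI -0.20 to 0.044, SRSF6 -0.0022 to 0.40, SRSF3 -0.014 to 0.39, SRSF1 -0.30 to 0.071, HNRNPUL1 -0.16 to 0.0045, HNRNPAB -0.019 to 0.22, SRSF10 -0.065 to 0.12 and HNRNPM -0.14 to 0.28. MBNL1, MBNL2, RBFOX1, RBFOX2, RBM20 and HNRNPH3 averaged lower in the ad libitum dogs under every alternative run for them. HNRNPC, HNRNPUL2, SRSF4 and SRSF9 likewise averaged higher under every alternative run for them.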
